A study of Rattus norvegicus with 6 samples.

Results

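MicroRNAs of the peri-infarct cortex that reach their mature form without the full canonical route were examined in rats with middle cerebral artery occlusion (MCAO), with and without repetitive transcranial magnetic stimulation (rTMS). The members were chosen by name, as all rows for miR-320, miR-484, miR-664, miR-877, miR-1224 and miR-1839, and 9 of the 493 mature miRNAs in the count table met this rule. Small RNA was sequenced from 3 male Sprague-Dawley rats each with MCAO alone and with MCAO + rTMS. In both groups the right middle cerebral artery was blocked for 90 min and then reperfused, and the MCAO cortex was taken at 7 days. The MCAO + rTMS rats, called stimulated here, in addition received 10 Hz stimulation for 10 min per day on 7 consecutive days. Per the study's methods, stimulation began the day after reperfusion. The labels of these rats give no day of tissue collection. The study heads its list of changed miRNAs with 7 days after the model was made, without naming a group. No sham-operated rats were part of the sequencing data used here, so each comparison is between stimulated and unstimulated rats with a stroke.

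In the canonical route, the nuclear enzyme Drosha cuts a hairpin out of a long transcript and the cytoplasmic enzyme Dicer then cuts the hairpin into a duplex, of which a 5p or a 3p strand is kept by an Argonaute protein. Mirtrons such as miR-877 and miR-1224 are short introns, and splicing and debranching take the place of Drosha. miR-664 and miR-1839 lie in small nucleolar or Cajal body RNAs, which guide the modification of other RNAs. miR-320 and miR-484 come from hairpins at a transcription start, which carry a cap and are not cut by Drosha. All of these classes still pass through Dicer.

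The mature sequences are shown because the members differ in which hairpin arm was counted and in base composition. A RefSeq sequence (GRCr8 assembly) was matched for 8 of the 9 members, and miR-320-3p had none in the table used here. Capitals mark the seed, bases 2 to 8, which pairs with target mRNAs.
miR-877: gUAGAGGAgauggcgcaggg
miR-1224: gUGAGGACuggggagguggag
miR-664-2-5p: cUGGCUGGggaaaaugauugg
miR-664-1-5p: cUGGCUGGggaaaaagauugg
miR-664-3p: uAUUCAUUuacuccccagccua
miR-1839-5p: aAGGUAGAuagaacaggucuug
miR-1839-3p: aGACCUACuuaucuaccaacag
miR-484: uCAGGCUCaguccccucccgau
Among the listed miRNAs with a sequence, the only seed shared with a member was that of miR-664-2-5p and miR-664-1-5p. These differ by U15A, which gives the base of miR-664-2-5p first and counts positions from 1 at the 5′ base. For the other members, the nearest listed miRNA differed at 6 or more of the first 18 bases.

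The hairpins show where each strand lies, with the mature strands in capitals. The first pair are the mirtrons, and the second pair are the small RNA hairpins for which both arms were counted.
Mir877 (chr20:2816284-2816368, plus strand, inside Abcf1): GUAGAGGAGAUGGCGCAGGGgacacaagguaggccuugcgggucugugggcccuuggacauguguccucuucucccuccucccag
Mir1224 (chr11:93811291-93811375, minus strand, inside Vwa5b2): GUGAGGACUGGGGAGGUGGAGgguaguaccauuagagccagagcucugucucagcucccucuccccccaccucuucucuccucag
Mir664-2 (chr13:99324650-99324708, plus strand, inside Rab3gap2): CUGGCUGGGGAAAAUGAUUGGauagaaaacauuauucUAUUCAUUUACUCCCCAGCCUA
Scarna15, the Cajal body RNA that holds miR-1839 (chr1:144893856-144893919, plus strand): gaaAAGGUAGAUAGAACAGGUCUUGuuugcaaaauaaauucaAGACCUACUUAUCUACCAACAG
Positions are those of GRCr8, while the submitters' processing notes name rn6 for the counts. Both mirtron hairpins begin with GU and end with AG, the letters of an intron's ends, as did 4 of the 419 RefSeq hairpins (0.955%), the others being Mir678 and Mir3595. In both, the mature strand starts at base 1 of the hairpin. The hairpin of miR-664-1, named Snora36c in RefSeq, differs from Mir664-2 at 1 base and holds the same 3p sequence, so reads of miR-664-3p could come from either. RefSeq places Mir320a next to Polr3d, and Mir484 next to Marf1 and Nde1.

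Library totals lay between 10492610 and 15411620 counts, and the 9 members took 0.0833% ± 0.00806 of them in MCAO libraries and 0.119% ± 0.0184 in stimulated libraries (mean ± SD, n = 3 each). Levels are given as CPM, the counts per 1000000 of the library total after scaling by edgeR's TMM factors, which ran from 1.16 to 1.39 for MCAO and from 0.695 to 0.864 with stimulation. The third MCAO + rTMS library had the smallest factor and correlated least with the others of its group (r = 0.983 and 0.986 on log2 CPM, against 0.995 between the other two). The neuronal miRNAs miR-124-3p, miR-128-3p and miR-9a-5p were all present and together held 322991 to 419814 CPM without and 423049 to 610143 CPM with stimulation. They did not rise together. miR-128-3p was higher by the test described below (log2 fold change 0.69), while miR-124-3p (-0.49) and miR-9a-5p (-0.16) did not pass it. Of 21 markers of 6 other cell types, 19 were tested, and 4 of these rose and 10 fell with stimulation. Over all 452 tested miRNAs, 27.2% rose and 28.1% fell. The list for microglia and leukocytes had 4 of 5 lower and none higher, with a summed level of 695 to 718 CPM without and 312 to 549 CPM with stimulation. Their part in the results was not tested, and in bulk tissue fewer cells of a type and less RNA per cell cannot be told apart.

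Of the 8 members tested, 5 rose and 1 fell with rTMS, by edgeR's quasi-likelihood test at an adjusted p below 0.05 (Benjamini-Hochberg over 452 miRNAs). miR-664-2-5p, miR-1224, miR-320-3p, miR-1839-5p and miR-877 were higher and miR-1839-3p was lower. Over all tested miRNAs the same rule called 27.2% higher and 28.1% lower. The libraries of the groups did not overlap for 7 of the 8 members, against 66.8% of all tested miRNAs, so a lack of overlap was common in this comparison. The number of members without overlap was 5 with upper-quartile factors and with library totals only. The share over all miRNAs was not taken there, so 5 cannot be read against the 66.8%, which holds for TMM factors. The median log2 fold change was 0.87 over the 8 members and -0.21 over all tested miRNAs, whose middle 50% ran from -0.94 to 0.81. With 5 members above and 3 below the median of all miRNAs, the members did not all shift the same way. The members above it were both mirtrons, the 5p arms of the small RNA hairpins, and miR-320-3p. Those below it were miR-484, miR-1839-3p and miR-664-3p, the last by 0.015 only and above it by 0.023 when library totals alone set the scale.

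**Figure D1:**
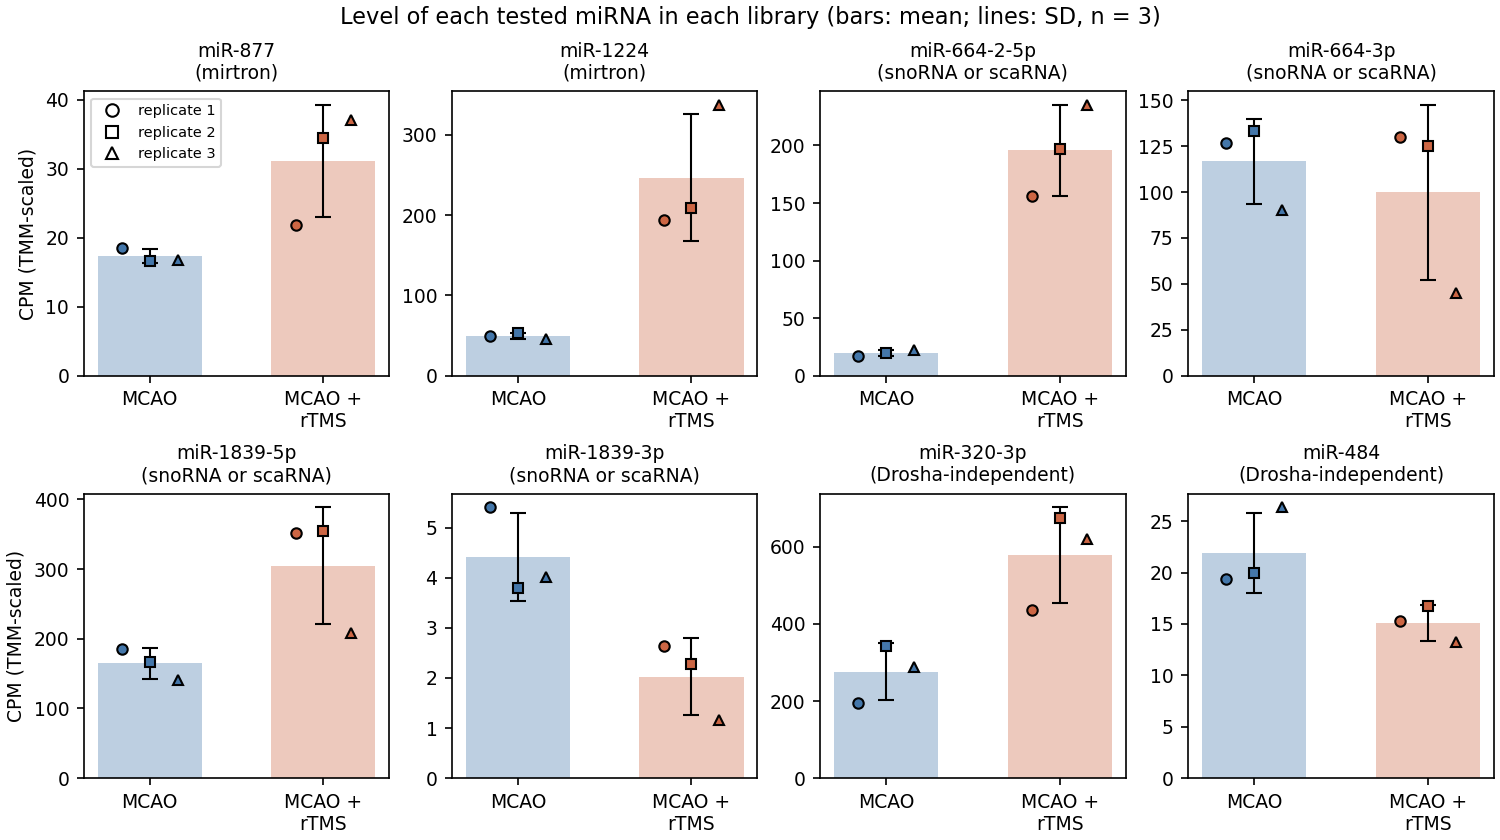
Level of each of the 8 tested members in CPM of the TMM-scaled total (y axes start at 0), with the MCAO group in blue and the MCAO + rTMS group in orange. Bars show the mean, lines the SD (n = 3) and symbols the replicates. The groups separate in every panel except that of miR-664-3p, where the third MCAO + rTMS library lies at 45.1 CPM.

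Both mirtrons rose. miR-1224, whose hairpin is an intron of Vwa5b2, was at 50.0, 53.5 and 45.8 CPM in MCAO libraries and at 194, 209 and 337 CPM in stimulated libraries. The lowest stimulated library was thus far above the highest unstimulated one. Its log2 fold change was 2.31 (standard error, SE, 0.26, edgeR adjusted p = 0.00054), the 15th largest of 452. In rank by count among the 493 miRNAs, it went from between 195 and 204 in the MCAO libraries to between 106 and 133 in the MCAO + rTMS libraries.

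miR-877, from an intron of Abcf1, a gene for an ATP-binding protein of translation initiation, was at 18.5, 16.7 and 16.8 CPM in MCAO libraries and at 21.9, 34.4 and 37.1 CPM in stimulated libraries. All stimulated libraries were higher, the first by little. Its log2 fold change of 0.85 (SE 0.24, edgeR adjusted p = 0.01997) was smaller than that of miR-1224, and the difference between the mirtrons was not tested. With library totals in place of TMM factors, the log2 fold change of miR-877 was 0.20 (edgeR adjusted p = 0.489). With upper-quartile factors it was 0.56 (adjusted p = 0.0868). Without MCAO replicate 2, MCAO replicate 3 or MCAO + rTMS replicate 2 the adjusted p was 0.0787, 0.0561 and 0.0692.

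Of the 5 strands from nucleolar and Cajal body RNAs, miR-664-2-5p and miR-1839-5p rose, miR-1839-3p fell, miR-664-3p did not pass the test and miR-664-1-5p was too rare to be tested. miR-664-2-5p had 17.4, 20.3 and 22.7 CPM in MCAO libraries and 156, 197 and 235 CPM in stimulated libraries. No library of either group came near the other group. Its log2 fold change of 3.28 (SE 0.23, edgeR adjusted p = 0.00018) ranked 1 of 452, and corresponds to a 9.72-fold higher level.

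The opposite strand, miR-664-3p, had 126, 133 and 90.1 CPM in MCAO libraries and 130, 125 and 45.1 CPM in stimulated libraries. These groups overlapped, and only the third stimulated library lay below all others. The log2 fold change was -0.22 (SE 0.39, edgeR adjusted p = 0.657), and 0.16 (adjusted p = 0.492) without that library. The near-copy miR-664-1-5p was listed at 0 counts in 5 libraries and at 14 counts in MCAO + rTMS replicate 3, and was not tested. Since the smallest count above 0 in the table is 10, a miRNA listed at 0 may be rare as well as absent.

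The 5p strand of miR-1839, from Scarna15, was at 186, 167 and 141 CPM in MCAO libraries and at 352, 355 and 208 CPM in stimulated libraries. The third stimulated library again was the lowest of its group, though above every MCAO library. The log2 fold change was 0.89 (SE 0.25, edgeR adjusted p = 0.0214). It was 0.30 (adjusted p = 0.423) with library totals only and 0.59 (adjusted p = 0.0667) with upper-quartile factors. The adjusted p was between 0.0628 and 0.0832 when MCAO replicate 2, MCAO replicate 3, MCAO + rTMS replicate 1 or MCAO + rTMS replicate 2 was left out.

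miR-1839-3p, the rarer strand, had 85, 46 and 64 counts in the MCAO libraries and 35, 27 and 12 counts in the MCAO + rTMS libraries, or 5.41, 3.80 and 4.01 CPM against 2.63, 2.28 and 1.17 CPM. All stimulated libraries were lower. The log2 fold change was -1.11 (SE 0.38, edgeR adjusted p = 0.0403). This call rested on few counts, and it was lost with DESeq2 (adjusted p = 0.0577), with limma-voom (0.0536) and when any library other than MCAO + rTMS replicate 1 was left out (0.0692 to 0.154).

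A ratio of the arms within a library does not depend on how libraries are scaled. For miR-664, the 5p count was 0.137, 0.152 and 0.252 times the 3p count in the MCAO libraries and 1.20, 1.58 and 5.21 times in the MCAO + rTMS libraries. The 3p strand was thus the more abundant in every MCAO library and the 5p strand in every MCAO + rTMS library. The log2 ratio was -2.52 ± 0.47 and 1.10 ± 1.13 (SD, n = 3 each), a difference of 3.62 that was 2.98 without MCAO + rTMS replicate 3. The two-sided exact permutation test gave p = 0.1, the smallest that 3 rats against 3 allow. Because the 3p sequence is shared with Snora36c, this is a ratio of Mir664-2 5p reads to 3p reads of both hairpins.

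For miR-1839 the 5p strand was the more abundant throughout. The 5p count was 34.3, 44.1 and 35.2 times the 3p count in the MCAO libraries and 134, 156 and 178 times in the MCAO + rTMS libraries. The log2 ratio rose from 5.23 ± 0.20 to 7.28 ± 0.21 (SD, n = 3 each), by 2.04 (exact permutation p = 0.1, two-sided). Here the third stimulated library, low for both arms, did not stand apart.

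Such changes were not peculiar to these hairpins. For comparison, 117 hairpins were used that had both arms tested and counted above 0 in every library. Tested hairpins with a 0 count for either arm in any library were left out. Over the 117, the change of the log2 ratio had a median of -0.089, with the middle 50% between -0.87 and 0.94. The groups did not overlap for 56.4%. Among the 117 hairpins, miR-664 had the largest change toward the 5p arm and miR-1839 ranked 10. The largest change among them, 4.04 in size, was toward the 3p arm of miR-106b. These ranks do not cover the hairpins left out, where changes on few counts could be larger. For example, miR-337-3p and miR-300-5p went from means of 1.09 and 1.73 CPM to 0 CPM with stimulation. The log2 fold changes of miR-337-5p and miR-300-3p were 0.16 and 0.68. In 19 of the 117 hairpins the arms were called in opposite directions, and in 6 of these, miR-1839 among them, the 5p arm rose and the 3p arm fell. Hairpins left out, such as miR-300, were not part of this count.

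**Figure D2:**
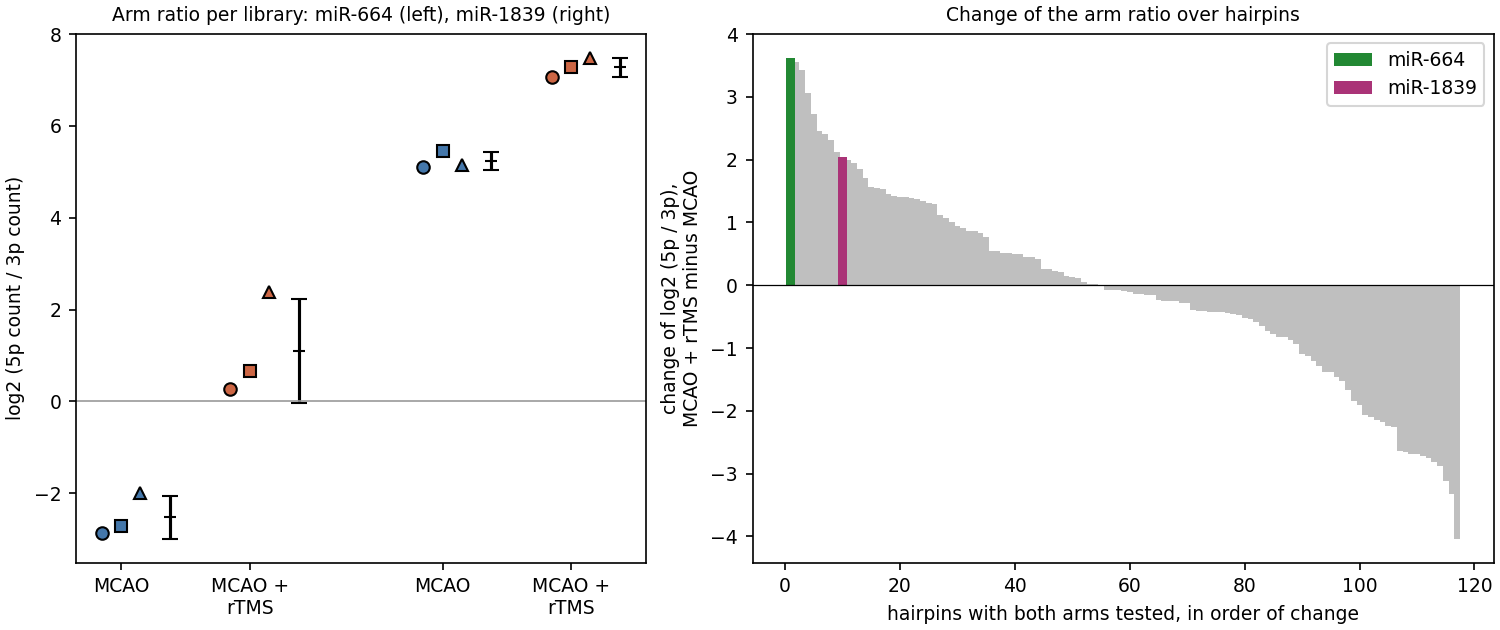
Left, log2 ratio of the 5p to the 3p count in each library (circle, square and triangle for replicates 1, 2 and 3; black marks show the mean and SD, n = 3) for miR-664 and miR-1839. Right, the change of that ratio between the groups for 117 hairpins in order of size, with miR-664 first and miR-1839 at rank 10. These had both arms tested and counted above 0 in every library.

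Of the Drosha-independent pair, miR-320-3p rose and miR-484 did not pass the test. miR-320-3p, the most abundant member, was at 196, 341 and 289 CPM in MCAO libraries and at 437, 676 and 621 CPM in stimulated libraries. The groups did not overlap, although the libraries within each group differed widely. Its log2 fold change was 1.07 (SE 0.27, edgeR adjusted p = 0.0133), and with library totals only it was 0.43 (adjusted p = 0.215).

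miR-484 was at 19.4, 19.97 and 26.4 CPM in MCAO libraries and at 15.3, 16.8 and 13.2 CPM in stimulated libraries. Every stimulated library was lower, but the log2 fold change of -0.54 (SE 0.21) missed the threshold with an adjusted p of 0.0596 in the edgeR test. It passed with upper-quartile factors (-0.84, adjusted p = 0.0134), with library totals only (-1.17, adjusted p = 0.0104) and with a mean count of at least 200 as the filter (-0.67, adjusted p = 0.0306).

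Summed by class, the mirtrons held 62.6 to 70.2 CPM in MCAO libraries and 216 to 374 CPM in stimulated libraries. The nucleolar and Cajal body rows held 258 to 335 CPM and 490 to 678 CPM, and the Drosha-independent pair 215 to 361 CPM and 452 to 693 CPM. With TMM factors each sum was higher in every stimulated library, and the last followed miR-320-3p, since miR-484 was rare beside it. Per 1000000 of the plain library total, only the mirtron sums stayed apart, at 81.1 to 87.2 against 186 to 260. This separation followed miR-1224, with a log2 fold change of 1.65 on that scale. miR-877 did not pass the test there (0.20, edgeR adjusted p = 0.489). The nucleolar and Cajal body sums then overlapped, at 359 to 401 against 341 to 586, as did the Drosha-independent sums, at 257 to 439 against 390.3 to 599.

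The scaling moved all members and the background together. The median log2 fold change of the 452 miRNAs was -0.21 with TMM factors, -0.50 with upper-quartile factors and -0.80 with library totals only. Relative to that median, the values with TMM factors and with library totals were 3.49 and 3.43 for miR-664-2-5p, 2.51 and 2.45 for miR-1224, and 1.28 and 1.24 for miR-320-3p. They were 1.10 and 1.10 for miR-1839-5p and 1.05 and 1.002 for miR-877. On the other side, they were -0.33 and -0.37 for miR-484 and -0.90 and -0.90 for miR-1839-3p, and miR-664-3p stayed at the median (-0.015 and 0.023). The order of the members was therefore the same under both scalings, while the number past the threshold was not. With library totals only, 2 members were higher (miR-664-2-5p and miR-1224) and 2 lower (miR-1839-3p and miR-484). Of all 452 miRNAs, 55 were higher and 208 lower on that scale, against 123 and 127 with TMM factors.

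**Figure D3:**
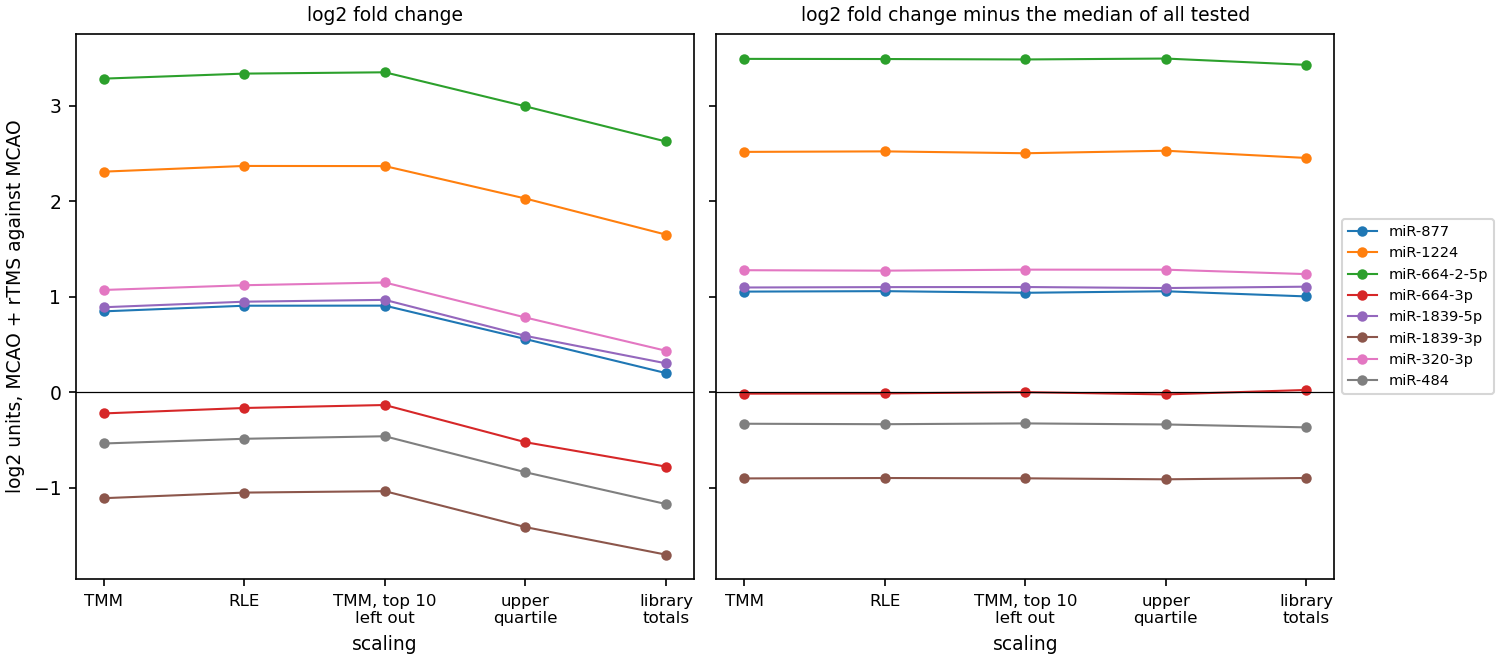
Log2 fold change of the 8 tested members under 5 scalings (left) and the same after subtracting the median of all tested miRNAs under that scaling (right). The lines fall toward library totals on the left and stay nearly level on the right, where miR-664-2-5p lies between 3.43 and 3.49.

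**Figure D4:**
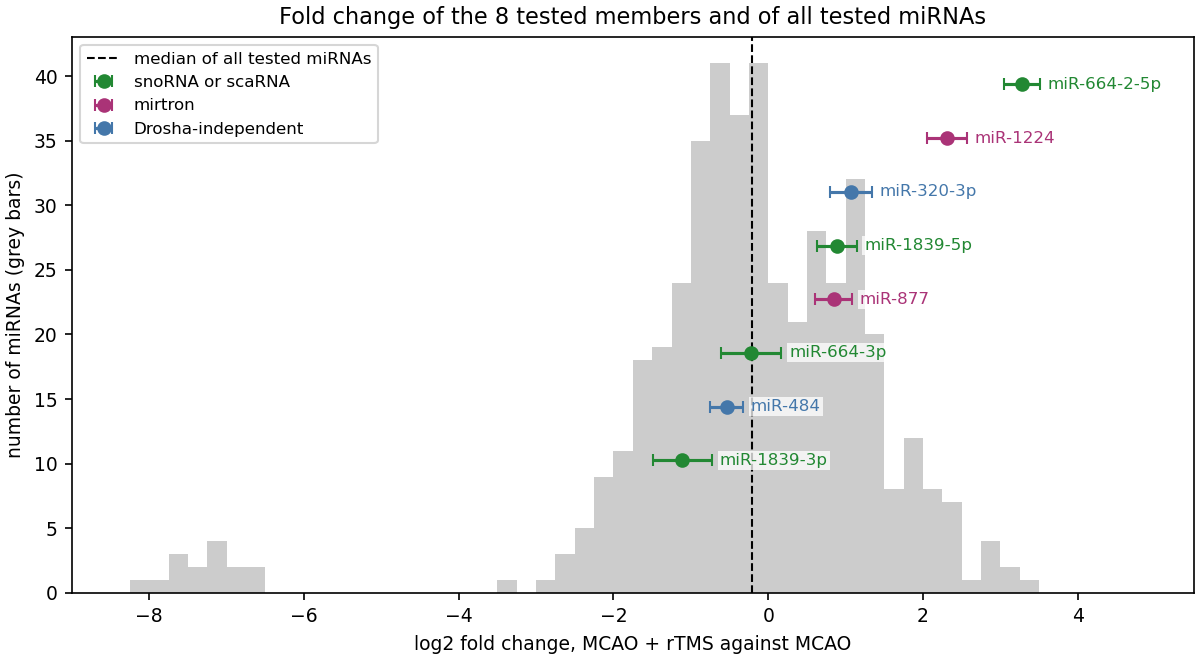
Log2 fold change of the 8 tested members (points, with standard error lines, spread vertically for legibility) over the histogram of all 452 tested miRNAs (grey, bins of 0.25), with the median of all at the dashed line. Both mirtrons lie to the right of the median, whereas each of the other classes has members on both sides of it.

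Members also differed in base composition. The mature GC content was 66.7% for miR-1224, 65.0% for miR-877 and 63.6% for miR-484, against a median of 47.8% over the 414 tested miRNAs with a sequence (91.6% of those tested). It was 52.4% for miR-664-2-5p and 40.9% for miR-664-3p and both arms of miR-1839. Across these miRNAs, GC content and log2 fold change had a Spearman's rho of 0.29, a description over miRNAs measured in the same 6 libraries. The median log2 fold change was -0.61 in the lowest tercile of GC content, -0.088 in the middle tercile and 0.17 in the highest tercile. Relative to the median of its own tercile, miR-1224 was at 2.14 and miR-877 at 0.68, lower than against all miRNAs, while miR-1839-5p was at 1.5001, miR-664-2-5p at 3.37, miR-484 at -0.71 and miR-1839-3p at -0.50. miR-664-3p, at -0.015 against all miRNAs, was at 0.39 against its tercile and so above it. GC content thus moved with fold change in these libraries, and its part in the members' changes was not tested.

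**Figure D5:**
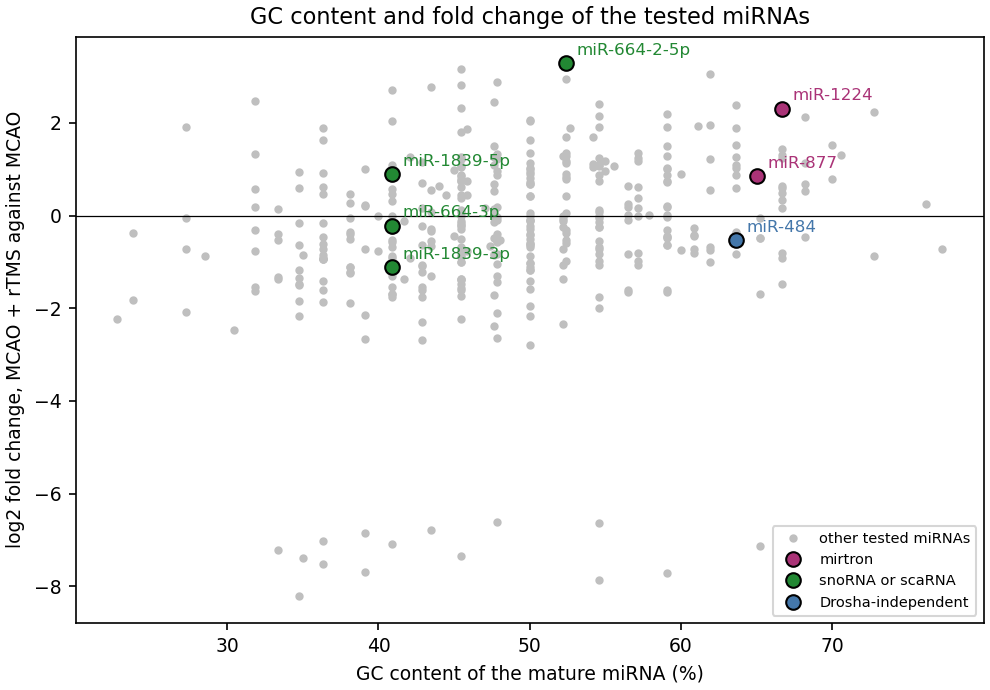
Log2 fold change against GC content of the mature strand for the 414 tested miRNAs with a sequence (grey) and the 7 members among them (coloured by class). The mirtrons sit at 65.0% and 66.7% GC, and the members at 40.9% GC are spread above and below 0.

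A list of other miRNAs made outside the full canonical route held miR-451 (cut by Argonaute rather than Dicer), the mirtrons miR-702 and miR-1981, and the intron-derived miR-1225 and miR-1228. The table had rows for miR-451 and miR-702 only, and both strands tested fell. miR-702-3p went from 55.4, 66.2 and 89.6 CPM to 30.5, 54.7 and 35.8 CPM, with a log2 fold change of -0.80 (SE 0.29, edgeR adjusted p = 0.0450). It therefore moved in the direction opposite to miR-877 and miR-1224. miR-451-5p, which is also a marker of red blood cells, went from 22.2, 60.6 and 11.8 CPM to 9.93, 10.1 and 10.9 CPM, with a log2 fold change of -1.61 (SE 0.55, edgeR adjusted p = 0.0382). Its second MCAO library lay far above the other two. The other red blood cell marker tested, miR-486, rose (log2 fold change 1.72, SE 0.28, edgeR adjusted p = 0.0022), and the sum of both was 141 to 302 CPM without and 513 to 637 CPM with stimulation. miR-702-5p was listed at 0 in 5 libraries and at 13 counts in MCAO + rTMS replicate 2.

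The miRNAs whose levels followed a member most closely were found by the root mean square difference of log2(CPM + 1), centred on each miRNA's mean over the 6 libraries, among 444 tested miRNAs that are not members. The centring spans both groups, so a like fold change between the groups by itself brings miRNAs close. For miR-1224 the closest were miR-485-3p (0.12), miR-671 (0.14) and miR-485-5p (0.14), against a median difference of 1.305 over the 444. Their log2 fold changes were 2.41, 2.32 and 2.14, beside 2.31 for miR-1224. For miR-320-3p the closest were miR-483-5p (0.19), miR-505-5p (0.21) and miR-342-5p (0.21), against a median of 0.81. Their log2 fold changes were 1.91, 0.87 and 1.35, beside 1.07 for miR-320-3p. miR-483-5p was rare, at a mean of 0.786 CPM without and 2.96 CPM with stimulation, so the added 1 shrinks its change on that scale.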

How the data were processed

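Per the labels, small RNA libraries were made from total RNA with the NEBNext small RNA kit, and the study's methods name an Illumina HiSeq instrument and analysis by a company. The submitters' processing notes list bcl2fastq, BWA, DESeq2 and rn6 without their roles. The miRNA database and the counting rule are not given in the sources used here. The authors deposited raw read counts of 493 mature miRNAs, and the same counts for 73 selected miRNAs, of which 2 (miR-320-3p and miR-1224) are members. Counts carry no molecular identifiers used here, so counting error is only part of their error. Precision is lowest near 10 counts, the smallest listed above 0.

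Counts were fitted without a block with edgeR 4.0.16 in R 4.3.3 (filterByExpr, TMM factors, quasi-likelihood test, Benjamini-Hochberg adjustment over 452 miRNAs). The study names a two-sample test, which was not used. The standard error is the log2 fold change over the square root of F. DESeq2 1.42.0, limma-voom (limma 3.58.1), other scalings and filters, a block for the replicate number, and fits that left out 1 library were tried. Arm ratios used an exact permutation test (scipy 1.17.1, Python 3.11.15), and figures matplotlib 3.10.9. All members were described, beside the fixed list of other non-canonical miRNAs, the markers, and the closest miRNAs to miR-1224 and miR-320-3p. Members and lists were chosen with earlier results of these data known. Nothing beyond the labels says that replicates were processed separately, so p-values measure the spread between these libraries.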

Additional observations from a re-analysis of the deposited data

How the results depend on the processing

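The number of members higher in the MCAO + rTMS group, 5 with TMM factors, was 3 with upper-quartile factors, 2 with library totals only, and 3 to 5 when 1 library was left out. The number lower, 1, was 2 with upper-quartile factors and with library totals only. It was 0 with TMM factors set without the 10 most abundant miRNAs, with DESeq2 and with limma-voom (at an unadjusted p under 0.05, 1, 1 and 2). When 1 library was left out, it was 0 to 1. Over all 452 miRNAs, 123 were higher and 127 lower with TMM factors. The same counts were 85 and 172 with upper-quartile factors, and 55 and 208 with library totals only. Without the 10 most abundant miRNAs they were 128 and 111, with DESeq2 129 and 131, and with limma-voom 125 and 131. When 1 library was left out, 88 to 122 were higher and 84 to 131 lower, of 455 to 469 tested. With the replicate number as a block in edgeR, 4 members were higher and 0 lower (1 lower at an unadjusted p under 0.05). Here miR-877 (adjusted p = 0.0596) and miR-1839-3p (0.0840) were lost, and over all 452 miRNAs 98 were higher and 82 lower. The numbers were treated as names only in the main fit. Same-numbered libraries deviated together in 1 pair (r = 0.198) and not in the others (-0.119 and -0.114). Pairs with different numbers ran from -0.279 to 0.297. So few values cannot show whether the numbers stand for a pairing. miR-664-3p, not called in any of the 15 alternatives, changed direction to 0.16 without MCAO + rTMS replicate 3 (range with 1 library left out, -0.46 to 0.16). miR-664-2-5p and miR-1224 stayed higher and past the threshold in all 15 alternatives, at log2 fold changes of 2.62 to 3.42 and 1.65 to 2.45. The change of the arm ratio was 2.98 to 4.04 for miR-664 and 1.94 to 2.16 for miR-1839 with 1 library left out. The shift with the scaling goes with the median of all miRNAs, and the cause of the other changes was not tested. miR-1839-3p, at 12 to 85 counts, limits what depth can show.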
